A study of Mus musculus with 6 samples.

Results

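The genes for milk proteins and lactation described here are 9 of the 41388 genes in the count data, chosen by symbol: 4 caseins (Csn1s1, Csn1s2a, Csn2 and Csn3), 2 whey proteins (Wap and Lalba) and 3 genes whose products belong to the milk fat globule (Mfge8, Btn1a1 and Xdh). All 9 had a row in each of the 6 libraries and all 9 passed the expression filter, which kept 12192 genes with a counts-per-million value (CPM) above 1 in at least 3 samples. CPM values are normalized between libraries by the trimmed mean of M values (TMM). RNA-seq compared tumor initiating cells (TICs, 3 samples) with non-CD24+CD90+ tumor cells (3 samples). Both groups came from mammary tumors of 12-week-old female mice of the strain FVB/N-TgN(MMTVPyVT)634Mul/J. These MMTV-PyMT mice express polyoma middle T antigen from the MMTV promoter, which is active chiefly in mammary epithelium, so that every sample of both groups carried the transgene and no sample came from normal or lactating gland. TICs were sorted as CD45-negative cells positive for CD24 and CD90, and the comparison group as CD45-negative cells outside this double-positive gate. The series description instead names cells negative for both markers, and the gate stated in the study's methods is followed here. RNA of 4 cell sorts was pooled for each library, 120 ng in all. The labels do not say whether the TICs and the other cells were sorted from the same mice, which the number of mice stated in the study would allow, and the samples were not treated as pairs.

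Milk is secreted by the luminal alveolar cells of the mammary gland. Caseins assemble with calcium into micelles, the whey proteins stay soluble, and fat droplets leave the cell wrapped in membrane that holds butyrophilin (Btn1a1), xanthine dehydrogenase (Xdh) and lactadherin (Mfge8). Prolactin acts through its receptor, the kinase Jak2 and the transcription factors Stat5a and Stat5b to raise casein and whey transcription during pregnancy and lactation, together with glucocorticoids and factors such as Elf5. Mammary tumor cells can retain parts of this secretory program outside lactation.

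Total counts were 6781239 to 8450038 in non-CD24+CD90+ tumor cells and 8114933 to 9100552 in TICs, so that 3 counts corresponded to 0.33 to 0.442 CPM. All 8 luminal epithelial markers (Krt8, Krt18, Krt19, Epcam, Cdh1, Cldn3, Cldn4 and Cldn7) were detected, with a summed level of 5731 to 6185 CPM in the non-CD24+CD90+ samples and 3854 to 4516 CPM in TICs, without overlap. The fibroblast markers summed to 2070 to 2504 CPM against 4859 to 8132 CPM, the pericyte markers to 388 to 461 CPM against 780 to 1267 CPM and the endothelial markers to 110 to 138 CPM against 152 to 546 CPM, while the basal markers overlapped at 916 to 1521 CPM and 862 to 1171 CPM. In a bulk sample, fewer cells of a type and less RNA per cell cannot be told apart. Of the genes behind the gate, Cd24a (log2 fold change -0.34, adjusted p = 0.985) and Thy1, which encodes CD90 (1.25, adjusted p = 0.35), did not pass edgeR's exactTest and overlapped between the groups, and Ptprc, which encodes CD45, had 33 counts in non-CD24+CD90+ replicate 1 and 0 counts in the other samples. The 6 leukocyte markers summed to 27.0, 29.4 and 8.01 CPM against 78.6, 80.7 and 32.1 CPM, without overlap. Among them Lyz2, the lysozyme of myeloid cells, rose in TICs (log2 fold change 2.68, exactTest adjusted p = 0.012). At 62.0, 75.3 and 28.0 CPM it made up most of the sum in TICs, so that the separation rested on this gene. Cd68, at 11.1, 17.6 and 3.72 CPM against 16.6, 5.36 and 4.09 CPM, overlapped and did not pass. Cd79a had 10 counts in 1 sample, and Adgre1 and Cd3e had 0 counts in every sample.

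The 4 caseins lie in 1 cluster on chromosome 5 of the mouse genome (GRCm38), with Csn1s1 at chr5:87666208-87682578, Csn2 at chr5:87692624-87699630 on the minus strand, Csn1s2a at chr5:87774567-87788797 and Csn3 at chr5:87925579-87932665. Wap lies at chr11:6635482-6638637, Lalba at chr15:98480400-98482721, Mfge8 at chr7:79133768-79149060, Btn1a1 at chr13:23456992-23465901 and Xdh at chr17:73883895-73950196, all on the minus strand. The 250 bases before the transcription start given by RefSeq (GRCm38.p6) are shown for Csn1s1, Csn2, Csn1s2a and Wap, because the level of these 4 genes was highest in the same library, TIC replicate 1. The sequences run 5′ to 3′ on the strand of the gene. Capitals mark the motif TTCNNNGAA, the core that STAT factors, Stat5 among them, are known to bind. It reads the same on both strands.
Csn1s1 (chr5:87665958-87666207, strand +): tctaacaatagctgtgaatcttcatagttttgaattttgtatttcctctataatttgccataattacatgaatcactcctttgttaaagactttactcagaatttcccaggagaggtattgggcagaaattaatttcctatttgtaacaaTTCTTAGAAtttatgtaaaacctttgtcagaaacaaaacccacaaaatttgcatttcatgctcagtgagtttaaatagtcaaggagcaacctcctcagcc
Csn2 (chr5:87699426-87699675, strand -): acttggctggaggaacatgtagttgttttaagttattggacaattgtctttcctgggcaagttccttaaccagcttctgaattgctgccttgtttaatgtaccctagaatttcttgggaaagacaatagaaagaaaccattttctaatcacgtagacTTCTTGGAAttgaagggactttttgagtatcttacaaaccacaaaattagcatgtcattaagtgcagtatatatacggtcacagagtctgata
Csn1s2a (chr5:87774200-87774449, strand +): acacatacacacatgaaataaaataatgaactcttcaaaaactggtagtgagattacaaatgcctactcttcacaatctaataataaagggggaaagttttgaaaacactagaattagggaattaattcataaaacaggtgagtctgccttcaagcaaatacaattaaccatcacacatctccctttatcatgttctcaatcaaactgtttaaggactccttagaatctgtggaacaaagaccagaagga
Wap (chr11:6638650-6638899, strand -): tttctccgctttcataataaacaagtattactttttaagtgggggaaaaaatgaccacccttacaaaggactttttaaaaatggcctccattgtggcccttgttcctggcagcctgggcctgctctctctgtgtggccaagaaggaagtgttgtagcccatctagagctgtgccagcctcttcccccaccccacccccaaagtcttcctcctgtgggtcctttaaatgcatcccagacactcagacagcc

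The motif was found as TTCTTAGAA, 100 bases before the start of Csn1s1, and as TTCTTGGAA, 93 bases before the start of Csn2. No match lay in the same window of Csn1s2a, Wap, Lalba or Mfge8. Of all 32851 promoter windows of this length, 7.02% held a match. A match describes the letters of the window and is not evidence of binding. The promoters of Csn3, Btn1a1 and Xdh were not analysed here.

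Of the 9 genes, 0 passed an adjusted p below 0.1 by edgeR's exactTest, whereas 1.55% of all genes tested did (1.36% higher and 0.189% lower in TICs). At an unadjusted p below 0.05, 0 of the 9 passed by exactTest, by edgeR's quasi-likelihood test or by DESeq2, and 7.85% of all genes passed by exactTest. DESeq2 gave no adjusted p for Csn2, so that its result does not cover this gene. The groups overlapped for each of the 9 genes, against 15.2% of all genes whose groups did not overlap. The log2 fold change, TICs over non-CD24+CD90+ tumor cells, was above 0 for 5 genes and below 0 for 4, with a median of 0.03 beside -0.0061 over all genes, and with library size alone it was above 0 for 4 genes. Of all genes tested, 49.71% were above 0 by TMM. The intervals were wide for several genes, so that a p above the threshold does not show equal levels.

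**Figure D1:**
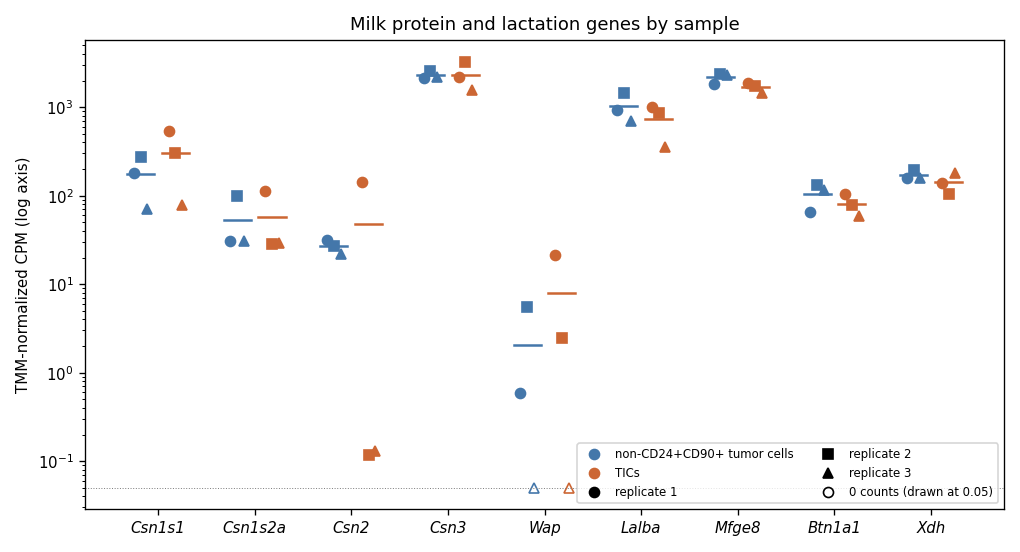
TMM-normalized CPM on a log axis for the 9 genes in each of 3 non-CD24+CD90+ samples (blue) and 3 TIC samples (orange), with the replicate given by the symbol and the group mean by a bar. Csn3, Mfge8 and Lalba lie highest, Csn2 falls to 0.117 and 0.132 CPM in TIC replicates 2 and 3, and the 2 open symbols are samples in which Wap had 0 counts.

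Csn3 encodes kappa-casein, which coats and stabilizes the casein micelle, and it had the highest count of the caseins and whey proteins in all 6 samples. Its level was 2112, 2560 and 2185 CPM in non-CD24+CD90+ replicates 1 to 3 and 2182, 3278 and 1542 CPM in TIC replicates 1 to 3. The TIC samples held both the highest and the lowest value and enclosed the other group. The mean was 2286 ± 241 CPM (SD, n = 3) in non-CD24+CD90+ tumor cells and 2334 ± 878 CPM (SD, n = 3) in TICs. The fold change was 1.02 with a 95% interval of 0.667 to 1.56 (log2 fold change 0.03, SE 0.31, exactTest adjusted p = 1), and it was -0.023 on the log2 scale with library size alone. By count, Csn3 ranked between 14 and 52 among all genes of a library.

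Csn1s1 encodes alpha-S1-casein, a main calcium-binding casein. It measured 181, 277 and 70.1 CPM in the non-CD24+CD90+ samples and 535, 306 and 79.4 CPM in TICs. TIC replicate 1 was the highest library, while TIC replicate 3 lay next to the lowest library of the other group. The means were 176 ± 103 and 307 ± 228 CPM (SD, n = 3 each), and the log2 fold change of 0.80 (SE 0.56) did not pass exactTest (adjusted p = 0.91). It was 0.15 without TIC replicate 1 and 1.29 without non-CD24+CD90+ replicate 2.

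Csn1s2a, an alpha-S2-type casein, measured 30.8, 99.3 and 30.8 CPM in the non-CD24+CD90+ samples and 114, 28.8 and 29.6 CPM in TICs. In each group 1 library was high and the other libraries lay near 30 CPM. The log2 fold change was 0.10 (SE 0.62, exactTest adjusted p = 1). Its direction rested on TIC replicate 1, without which it was -0.86, and it also turned to -0.16 without non-CD24+CD90+ replicate 1 and to -0.18 without replicate 3 of that group.

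Csn2 encodes beta-casein, the classical readout of prolactin and STAT5 activity, and was the member with the most uneven levels among TICs. It had 219, 238 and 155 counts in the non-CD24+CD90+ samples, or 32.0, 27.0 and 22.2 CPM. In TICs it had 1312, 1 and 1 counts, or 144, 0.117 and 0.132 CPM. TIC replicate 1 was therefore above all samples of the other group, and TIC replicates 2 and 3 were below all of them, at fewer counts than the floor of 3. The fitted log2 fold change over all samples was 0.83 (SE 1.36, exactTest adjusted p = 1), a mean of opposite departures. Without TIC replicate 1 the fitted log2 fold change was -7.58 and passed exactTest (adjusted p = 0.00053, with a range of 0.00053 to 1 over the 6 fits that left out 1 sample). That fit depends on the prior count, and the direct comparison pooled 612 counts in the 3 non-CD24+CD90+ samples against 2 counts in TIC replicates 2 and 3, a ratio per total count of 231 with an exact binomial 95% interval of 63.6 to 1909. The interval covers counting error only, and these libraries were singled out after their values were seen.

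The totals of TIC replicates 2 and 3, 8639817 and 8114933 counts, were above those of non-CD24+CD90+ replicates 1 and 3, and Csn3 had 28117 and 11690 counts in them. Among 6194 genes with at least 100 counts in all 3 non-CD24+CD90+ samples, 3 genes were at 0 or 1 count in exactly 2 TIC samples, namely Csn2, Rph3al and Tctn3, while 50 were so in exactly 1 TIC sample and 0 in all 3. Genes with at least 100 counts in the other 5 samples were at 0 or 1 count in 0.036% of cases in TIC replicate 2 and in 0.348% in TIC replicate 3, against 0 to 0.071% in non-CD24+CD90+ tumor cells. The part that such missing genes had in the Csn2 values was not tested.

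**Figure D2:**
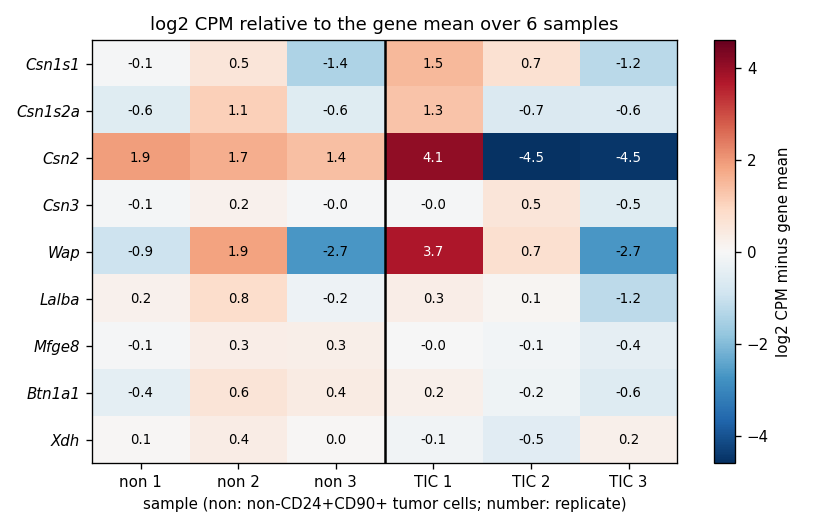
Log2 CPM of each gene minus its mean over the 6 samples, with rows for genes and columns for samples (non, non-CD24+CD90+ tumor cells), red for above and blue for below the gene's mean. Csn2 spans from 4.1 above its mean in TIC replicate 1 to 4.5 below it in TIC replicates 2 and 3, while Mfge8 and Xdh vary far less.

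Wap encodes whey acidic protein, an abundant whey protein of rodent milk. It had 4, 49 and 0 counts in the non-CD24+CD90+ samples and 192, 21 and 0 counts in TICs, which gave 0.584, 5.56 and 0 CPM against 21.1, 2.45 and 0 CPM. It was the least abundant member in non-CD24+CD90+ tumor cells, and replicate 3 of both groups lacked it at a depth where 3 counts stand for 0.37 to 0.442 CPM. The log2 fold change of 1.93 had an SE of 2.03 (exactTest adjusted p = 1), and its biological coefficient of variation (BCV), the spread between replicates beyond counting error, was 1.71 and exceeded that of 95.29% of genes.

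Lalba encodes alpha-lactalbumin, which turns B4galt1 into lactose synthase. It measured 939, 1435 and 689 CPM in the non-CD24+CD90+ samples and 997, 863 and 353 CPM in TICs. TIC replicate 3 was the lowest library and non-CD24+CD90+ replicate 2 the highest, with the other values intermixed. The means were 1021 ± 379 and 738 ± 340 CPM (SD, n = 3 each), a log2 fold change of -0.47 (SE 0.39, exactTest adjusted p = 0.98). The 95% interval of the fold change ran from 0.426 to 1.23.

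The caseins and whey proteins summed to 3295, 4403 and 2997 CPM in the non-CD24+CD90+ samples and 3994, 4479 and 2005 CPM in TICs. The TIC samples again enclosed the other group, with means of 3492 ± 1311 against 3565 ± 741 CPM (SD, n = 3 each) and a ratio of 0.98. As a share of all counts this was 0.323% (Wilson 95% interval 0.319 to 0.327%), 0.459% (0.455 to 0.464%) and 0.309% (0.305 to 0.313%), and in TICs 0.399% (0.395 to 0.403%), 0.445% (0.44 to 0.449%) and 0.187% (0.184 to 0.19%). These intervals cover counting error only, and the shares of the samples differed by more than them. Csn3 made up 86.4% to 94.7% of casein counts in 5 samples and 73.3% in TIC replicate 1, where Csn2 reached 4.85% against 0.911% to 1.36% in non-CD24+CD90+ tumor cells.

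Set against the summed luminal markers, the same milk transcripts came to 53.3%, 72.9% and 52.3% of the luminal sum in non-CD24+CD90+ tumor cells and to 88.4%, 112% and 52.0% in TICs. TIC replicates 1 and 2 exceeded the other group on this scale, and TIC replicate 3 was the lowest sample. All genes were also scaled to the luminal markers in place of TMM, a choice made after seeing the lower luminal sum in TICs. The median log2 fold change of all genes then moved to 0.53, and 9553 of 12192 genes were above 0. All 9 members had a log2 fold change above 0 on this scale, and 0 of them passed exactTest. Relative to that median, Csn3 at 0.57 stood near the rest of the genes, Csn1s1 at 1.31 above it and Lalba at 0.05 below it. Mfge8, Btn1a1 and Xdh came to 0.18, 0.15 and 0.27, above 0 but below that median, whereas by TMM they were below 0.

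**Figure D3:**
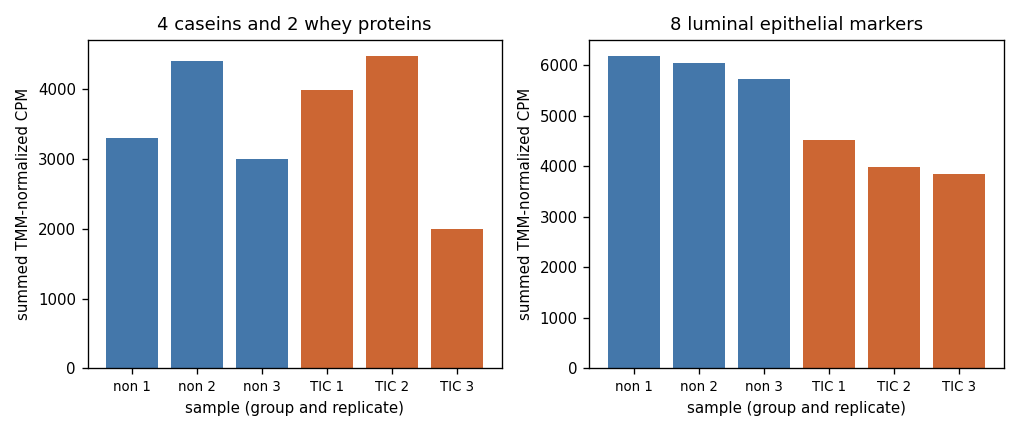
Summed TMM-normalized CPM of the 4 caseins and 2 whey proteins (left) and of the 8 luminal epithelial markers (right), with 1 bar per sample from 0. The milk sum of the TIC samples runs from 2005 to 4479 CPM around the other group, while the luminal sum is lower in the 3 TIC samples (3854 to 4516 CPM) than in the 3 non-CD24+CD90+ samples (5731 to 6185 CPM).

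Among the milk fat globule genes, Mfge8 encodes lactadherin, which binds phosphatidylserine on membranes and apoptotic cells. It measured 1835, 2347 and 2321 CPM in the non-CD24+CD90+ samples and 1886, 1750 and 1443 CPM in TICs. The overlap was narrow, with TIC replicate 1 above the lowest library of the other group and TIC replicates 2 and 3 below that group. The means were 2168 ± 288 and 1693 ± 227 CPM (SD, n = 3 each), and the log2 fold change of -0.36 (SE 0.27) did not pass exactTest (adjusted p = 0.95). Its BCV of 0.23 was larger than that of 0.51% of genes, and the 95% interval of its fold change, 0.539 to 1.13, was the narrowest of the 9 on the log scale.

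Btn1a1 encodes butyrophilin, a membrane protein needed for the secretion of fat droplets. It measured 64.8, 132 and 114 CPM in the non-CD24+CD90+ samples and 105, 77.4 and 58.7 CPM in TICs. TIC replicate 3 was the lowest library and non-CD24+CD90+ replicate 1 next to it (log2 fold change -0.37, SE 0.39, exactTest adjusted p = 1). Xdh encodes xanthine dehydrogenase, which binds butyrophilin in the globule membrane and also works as an enzyme of purine breakdown in many tissues. It measured 160, 196 and 157 CPM in the non-CD24+CD90+ samples and 138, 106 and 179 CPM in TICs. TIC replicates 1 and 2 were below the other group and TIC replicate 3 within it (log2 fold change -0.28, SE 0.32, exactTest adjusted p = 1).

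**Figure D4:**
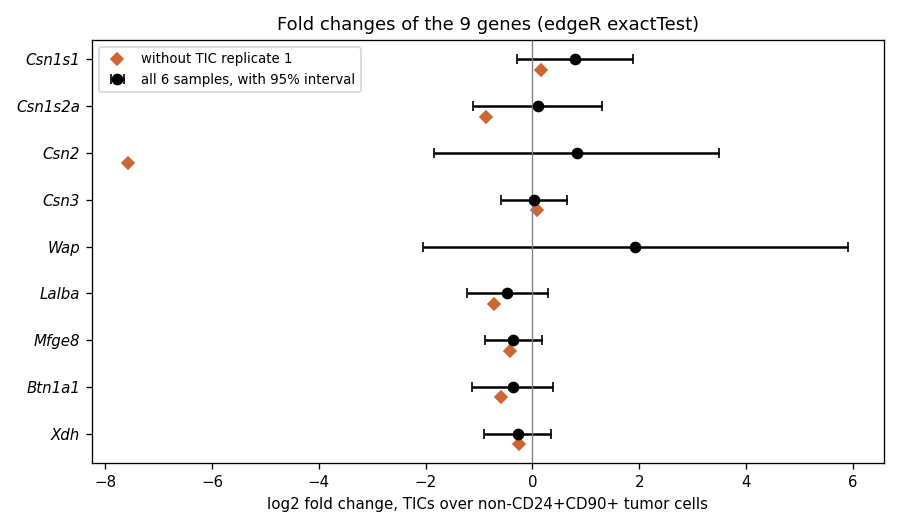
Log2 fold change, TICs over non-CD24+CD90+ tumor cells, of the 9 genes with 95% intervals from all 6 samples (black) and the same value without TIC replicate 1 (orange, not available for Wap). All black intervals cross 0, and without TIC replicate 1 the value of Csn2 moves from 0.83 to -7.58 and that of Csn1s2a from 0.10 to -0.86.

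To compare levels between genes, CPM was divided by the length of the principal transcript, giving reads-per-kilobase-per-million values (RPKM). In non-CD24+CD90+ tumor cells the median (range) was 1369 (1323 to 1604) RPKM for Csn3, 1218 (894 to 1861) RPKM for Lalba and 1092 (864 to 1105) RPKM for Mfge8, and Csn1s1 followed with 128 (49.7 to 196) RPKM. Xdh at 34.7 (34.2 to 42.5), Csn1s2a at 33.5 (33.4 to 108) and Btn1a1 at 33.4 (18.9 to 38.4) RPKM lay together, with Csn2 at 20.3 (16.7 to 24.0) and Wap at 1.06 (0 to 10.1) RPKM last. The ranges of neighbours in this order overlapped except between Mfge8 and Csn1s1, Csn1s1 and Xdh, and Csn2 and Wap. In TICs the order began the same, with Csn3 at 1367 (966 to 2054), Lalba at 1120 (458 to 1293), Mfge8 at 824 (679 to 888) and Csn1s1 at 217 (56.3 to 379) RPKM. The lower end was Csn1s2a at 32.1 (31.3 to 124), Xdh at 30.0 (22.9 to 39.0), Btn1a1 at 22.6 (17.2 to 30.5), Wap at 4.44 (0 to 38.3) and Csn2 at 0.099 (0.088 to 108) RPKM. Neighbours overlapped in TICs except Mfge8 and Csn1s1, and the place of Csn2 below Wap was set by TIC replicates 2 and 3.

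Further genes of lactation were taken from 6 lists, in which 47 of 57 listed genes passed the expression filter and 1 gene was called, beside 1.55% of all genes tested. Of all 12192 genes, 6061 had a log2 fold change above 0 by TMM. This count was 6233 by the RLE size factors, 5650 by library size alone and 9553 when scaled to the luminal markers, so that the counts above 0 in each list are to be read beside these. Lactose synthesis and ion transport stood lowest by its median. In this list 0 of 7 tested genes were called and 0 had a log2 fold change above 0, with a median of -0.74. B4galt1, the galactosyltransferase that Lalba binds, measured 514, 444 and 494 CPM in the non-CD24+CD90+ samples and 321, 377 and 348 CPM in TICs. Its groups did not overlap, yet its log2 fold change of -0.47 (SE 0.27) did not pass exactTest (adjusted p = 0.78). Slc35a2, which carries UDP-galactose into the Golgi, had the largest difference of the list, 27.9 ± 4.42 against 13.4 ± 5.68 CPM (SD, n = 3 each; log2 fold change -1.05, SE 0.74, exactTest adjusted p = 0.92). Under scaling to the luminal markers 3 of the 7 genes had a value above 0. The list median was then -0.22, still below the median of all genes, which moved to 0.53.

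Of the genes that carry the prolactin signal, 0 of 8 tested were called and 2 had a log2 fold change above 0 (7 when scaled to the luminal markers), with a median of -0.14. Prlr, Stat5a and Stat5b, added to the named genes after their values were seen, were expressed in all 6 samples. The prolactin receptor Prlr measured 126, 114 and 148 CPM in the non-CD24+CD90+ samples and 135, 146 and 58.2 CPM in TICs. Stat5a, at 81.4, 46.6 and 35.3 CPM against 30.6, 56.0 and 29.7 CPM, and Stat5b, at 107, 126 and 80.1 CPM against 132, 74.3 and 82.3 CPM, also overlapped. The kinase Jak2, also added after its values were seen, measured 37.8, 20.9 and 27.0 against 17.0, 7.93 and 26.4 CPM. Stat5b was highest of the 6 samples in TIC replicate 1, in which Csn2 peaked, and lower in both libraries with 1 count of Csn2. Non-CD24+CD90+ replicate 3, with 155 counts of Csn2, had a Stat5b level between those of these libraries. For Prlr, Stat5a and Jak2, the libraries with 1 count of Csn2 did not lie on the same side of TIC replicate 1. TIC replicate 2 was the lowest of the 6 samples for Jak2 but lay above TIC replicate 1 for Prlr and Stat5a. TIC replicate 3 was the lowest for Prlr and Stat5a but lay above TIC replicate 1 for Jak2, and its Stat5a level was close to that of TIC replicate 1. The part of these genes in the Csn2 values was not tested. Socs2, a feedback inhibitor of cytokine receptors and the most abundant gene of the list, was at 134 ± 40.9 against 126 ± 28.7 CPM. Socs1, another such inhibitor, had the largest difference, 5.20 ± 1.82 against 20.4 ± 12.8 CPM (SD, n = 3 each; log2 fold change 1.97, SE 1.01, exactTest adjusted p = 0.71).

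Of 10 secretory and alveolar transcription factors, 0 were called and 2 had a log2 fold change above 0 (1 when scaled by library size alone and 7 when scaled to the luminal markers), with a median of -0.29. Nfib, a nuclear factor I protein and the most abundant of them, measured 4022, 3479 and 3634 CPM in the non-CD24+CD90+ samples and 2621, 3134 and 2564 CPM in TICs, without overlap (log2 fold change -0.42, SE 0.27, exactTest adjusted p = 0.86). Tfap2c, an AP-2 factor of luminal cells, measured 372, 326 and 378 against 257, 207 and 124 CPM and had the largest difference (-0.87, SE 0.32, exactTest adjusted p = 0.25). Elf5, the driver of alveolar differentiation, was also named after its values were seen and measured 117, 261 and 208 against 116, 168 and 71.1 CPM (-0.72, SE 0.39, exactTest adjusted p = 0.70). Ehf (221, 263 and 235 against 174, 181 and 183 CPM) and Id2 (482, 328 and 339 against 245, 246 and 227 CPM) were likewise named afterwards. Nfib, Tfap2c, Ehf and Id2 were lower in the 3 TIC samples without overlap, and the other factors of the list overlapped. Of all genes tested, 15.2% did not overlap between the groups in either direction. The luminal marker sum was also lower in the 3 TIC samples, and the part of the luminal share in these values was not tested.

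Of 8 tested genes of the milk fat globule and lipid droplet list, 1 was called, and 5 had a log2 fold change above 0 (7 when scaled to the luminal markers), with a median of 0.09. Cd36, a fatty acid transporter of the milk fat globule membrane that endothelial cells and adipocytes also make, measured 22.8, 34.3 and 19.2 CPM in the non-CD24+CD90+ samples and 63.1, 170 and 298 CPM in TICs. It rose in TICs (25.4 ± 7.89 against 177 ± 118 CPM, SD, n = 3 each; log2 fold change 2.80, SE 0.48, exactTest adjusted p = 7.43e-05). The 6 endothelial markers, of which 0 were called and 6 had a log2 fold change above 0, summed to 152, 255 and 546 CPM in the same TIC samples. The fibroblast markers summed to 4859, 7103 and 8132 CPM and the pericyte markers to 780, 1021 and 1267 CPM in them, so that all 3 sums had the order of Cd36 within TICs. This order did not hold in the non-CD24+CD90+ samples. There Cd36 was highest in replicate 2, in which the endothelial sum (110 CPM) and the fibroblast sum (2070 CPM) were lowest and the pericyte sum (461 CPM) was highest. Of 5 adipocyte markers, Adipoq, Plin1 and Lep had 0 counts in every sample, Cfd had 48, 6 and 1 counts in the non-CD24+CD90+ samples and 0, 65 and 0 counts in TICs, and Fabp4, which endothelial cells also express, rose (log2 fold change 2.75, exactTest adjusted p = 0.00047). The part of these cell types in the rise of Cd36 was not tested. Thrsp, a lipogenic protein and the most abundant gene of the list, was at 695.5 ± 144 against 502 ± 206 CPM (log2 fold change -0.47, SE 0.34, exactTest adjusted p = 0.92).

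Of 10 tested further milk proteins, 0 were called and 5 had a log2 fold change above 0 (6 by the RLE size factors and 9 when scaled to the luminal markers), with a median of 0.04. Lcn2, the iron-scavenging lipocalin, was the most abundant with 4116 ± 372 against 3092 ± 728 CPM (log2 fold change -0.41, SE 0.28, exactTest adjusted p = 0.90). The remaining casein, Csn1s2b, had 5, 9 and 1 counts in the non-CD24+CD90+ samples and 0, 109 and 117 counts in TICs. Its high libraries were TIC replicates 2 and 3, the ones with 1 count of Csn2, and the low one was TIC replicate 1, in which Csn2 peaked (log2 fold change 3.85, SE 1.81, exactTest adjusted p = 0.75). Reads that did not map uniquely had been removed in all 6 libraries, which can undercount related caseins. The part of this in the values of Csn1s2b and Csn2 was not tested. Of 4 tested hormone receptors and mediators, 0 were called and 3 had a log2 fold change above 0 (4 when scaled to the luminal markers), with a median of 0.52. Igfbp5, which binds insulin-like growth factors, was at 10376 ± 1448 against 8297 ± 1585 CPM, and Wnt4, a mediator of progesterone, had the largest difference at 2.65 ± 3.66 against 10.8 ± 4.55 CPM (log2 fold change 2.03, SE 1.48, exactTest adjusted p = 0.97).

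**Figure D5:**
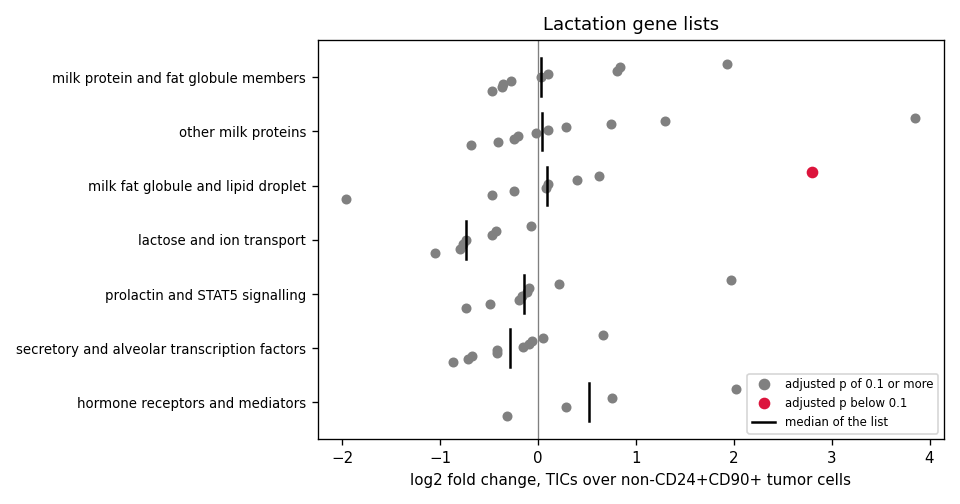
Log2 fold change, TICs over non-CD24+CD90+ tumor cells, of each tested gene in the 9 members and the 6 lists of lactation genes, with 1 point per gene and the median of each list as a vertical bar. Cd36 is the red point at 2.80, the 1 gene with an adjusted p below 0.1, and the 7 lactose and ion transport genes lie left of 0.

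The genes with the most similar pattern over the 6 samples were found by the root mean square (rms) difference of centred log2 CPM among 3789 genes with at least 50 CPM. Among the closest to the mean of the caseins and whey proteins, whose pattern spans 3.61 on the log2 scale and is weighted towards Csn2 and Wap, were Mon1a (rms 0.43), Saa2 (0.45), Saa1 (0.46) and Ndufs8 (0.57). The serum amyloid A gene Saa1, an acute phase gene, measured 899, 873 and 558 CPM in the non-CD24+CD90+ samples and 1752, 608 and 288 CPM in TICs. Closest to Mfge8, whose pattern spans 0.70, were Coa3 (0.039), Ppp4r3a (0.051) and Igfbp5 (0.068). These are descriptions over 6 samples, with no test.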

How the data were processed

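Gene counts of 6 RNA-seq libraries, 3 per group, were analysed. The authors used Trimmomatic 0.32 for trimming, STAR 2.4.0 for alignment to GRCm38, SAMtools 1.1 to drop reads without a unique position and HTSeq for counting, and deposited the raw counts. The strand setting and annotation release of the counting are not given in the sources used here. Symbols and positions came from GENCODE M21 on GRCm38, which named 40340 of 41388 genes, and the unnamed genes held 0.133% of counts. Genes above 1 CPM in 3 or more libraries were tested as in the study's methods with edgeR 4.0.16 (R 4.3.3, TMM, tagwise dispersions, exactTest, Benjamini-Hochberg over 12192 genes, threshold 0.1). SEs came from the negative binomial fit, and 95% intervals are 1.96 SE either way. The CPM minimum of the authors is not given in the sources used here. DESeq2 1.42.0 and other settings were alternatives. The scripts were tested on simulated data. The members and lists were chosen with earlier results of these data known. Genes named were the 9 members, the called, most abundant and most changed gene of each list, the genes of most similar pattern (1 of them is not reported here) and the sorting genes. Replicate numbers follow the sample order within a group and pair nothing. Whether pools of the 2 groups shared mice is not given in the labels, and p-values treat the samples as independent. An exact permutation test of 3 against 3 samples cannot go below p = 0.1.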

Additional observations from a re-analysis of the deposited data

How the results depend on the processing

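In 121 refits of single members under alternatives, 110 kept their direction and their side of the threshold, and 11 changed direction. The count of all genes called was 189 by exactTest, 50 by the quasi-likelihood test, 306 by DESeq2, 112 without the filter, 116 at an adjusted p below 0.05, 770 when scaled to the luminal markers (added after seeing the data) and 72 to 323 when 1 sample was left out (87, 90 and 72 without non-CD24+CD90+ replicates 1, 2 and 3, 323 and 102 without TIC replicates 1 and 2). The cause was not tested. The count of members called was 0 under each of these, apart from 1 (Csn2, log2 fold change -7.58) without TIC replicate 1, a range of 0 to 1. DESeq2 gave no adjusted p for Csn2, which was taken as not called there and in the 121 refits. The range of the log2 fold change with 1 sample left out was 0.15 to 1.29 for Csn1s1 (lowest without TIC replicate 1), -0.86 to 0.90 for Csn1s2a, -7.58 to 1.44 for Csn2, -0.29 to 0.28 for Csn3, 1.35 to 2.53 for Wap, -0.73 to -0.11 for Lalba, -0.45 to -0.23 for Mfge8, -0.60 to -0.16 for Btn1a1 and -0.47 to -0.10 for Xdh. Csn3 was -0.023 by library size alone. Scaled to the luminal markers, Lalba was 0.054, Mfge8 0.18, Btn1a1 0.15 and Xdh 0.27, while the median of all genes moved to 0.53. The summed milk ratio ranged from 0.842 to 1.21 with 1 sample left out. Wap gave no value without TIC replicate 1, TIC replicate 2 or non-CD24+CD90+ replicate 2, nor did Wap and Csn2 under at least 10 counts in every sample, because they failed the filter. No paired analysis was possible because the labels give the groups no shared replicate numbers. At the depth of these libraries, levels under 0.33 to 0.442 CPM could not be told from 0.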

Other observations

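The casein interval from Csn1s1 to Csn3 spans 266.5 kb of chromosome 5 and holds 10 genes of the count table, 7 of them protein-coding. Besides the caseins these include Odam, an enamel and junctional epithelium protein, and the proline-rich Prr27, both chosen after their values were seen. Odam had 0, 0 and 4 counts in the non-CD24+CD90+ samples and 0, 0 and 222 counts in TICs, so that TIC replicate 3 held nearly all of its counts. Prr27 had 1, 20 and 0 counts in the non-CD24+CD90+ samples and 1, 0 and 0 counts in TICs, with most of them in non-CD24+CD90+ replicate 2. Within this interval the libraries with the most counts were thus TIC replicate 1 for Csn1s1, Csn1s2a and Csn2, TIC replicate 2 for Csn3, TIC replicate 3 for Csn1s2b and Odam, and non-CD24+CD90+ replicate 2 for Prr27. No test was run on these values.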
